A study of Mus musculus with 6 samples.

Results

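The basement membrane collagens, laminins, nidogens and perlecan were followed on 6 arrays of differentiating mouse ESCs with and without induced Snail. The 10 genes were Col4a1 and Col4a2 (collagen IV), Lama1, Lama4, Lama5, Lamb1 and Lamc1 (laminin chains), Nid1 and Nid2 (nidogens) and Hspg2 (perlecan). They were read from every probe set to which the array annotation gives one of these symbols and no other gene. That came to 21 of the 45037 probe sets, and to 10 of 18193 genes with a probe set of their own.

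A basement membrane is a thin sheet of extracellular matrix on which epithelial and endothelial cells rest. Laminin, a trimer of an alpha, a beta and a gamma chain, assembles at the cell surface, where integrins and dystroglycan hold it, while collagen IV forms a separate covalently linked network, and nidogens and perlecan bind the networks to each other. In the early mouse embryo and in embryoid bodies the extraembryonic endoderm lays down such a sheet against the epiblast, and cells that undergo an epithelial to mesenchymal transition leave it. Snail is a zinc finger repressor known for binding the sequence CAGGTG and for repressing E-cadherin.

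The A2.Snail cells derive from A2lox mouse ESCs and carry a Snail transgene induced by doxycycline (dox). All cultures were embryoid bodies in fetal calf serum with the Wnt inhibitor DKK, made from ESCs that had been kept on irradiated mouse embryo fibroblasts and passaged once without them. In the DKK + dox cultures 250 ng/mL dox was added at day 2, in the DKK cultures none, and RNA was taken 6, 12 and 24 hours later (days 2.25, 2.5 and 3). Each of the 6 combinations is 1 array, so no single-time value is backed by a replicate, and since no array had dox without the transgene, dox and Snail cannot be told apart.

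The deposited values are linear intensities with array medians of 53.5 to 63.7. Differences were taken as DKK + dox minus DKK in log2(intensity + 20.6), the added constant being the pooled 25th percentile. This scale understates the change of low signals. A gene was represented by the probe set of highest mean. An intensity of 37.2, the pooled 40th percentile, served as the low-signal limit, and limma tested the 14755 genes above it on some array for a dox effect proportional to elapsed hours, with time points as blocks. Each fitted difference is that trend at 24 hours. The fit has 2 residual degrees of freedom among the arrays, and its p-values measure how far 6 arrays depart from the trend, not the spread between cultures. The Snai1 probe set lay under the limit on all 6 arrays (14.5 to 29.6 in DKK + dox, 10.9 to 32.9 in DKK) and does not check the labels. Cdh1 (E-cadherin) read 3464.5, 2868 and 3063 in DKK + dox and 4481, 5957 and 6222 in DKK at 6, 12 and 24 hours.

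Of the 10 genes, 9 were tested, and collagen IV and nidogen 1 rose with dox while laminin alpha 5 fell. Col4a1, Col4a2 and Nid1 rose (3 of 9, where 8.32 percent of all genes tested rose) and Lama5 fell (1 of 9, where 6.38 percent fell). Lama1, Lamb1, Lamc1, Nid2 and Hspg2 did not pass, and Lama4 did not enter the test. The differences were small at first. At 6 hours none of the 9 genes was 2-fold higher or lower with dox, against 0.271 percent of all genes higher and 0.468 percent lower. All 9 lay below zero, as did 8557 of the 14755 genes tested. Their median was -0.18 (-0.04 over all genes), with Hspg2 the lowest at -0.54. At 12 hours none was 2-fold higher (1.27 percent of all genes) and 1, Lama5, was 2-fold lower (2.25 percent). At 24 hours Col4a1, Col4a2 and Nid1 were 2-fold higher (3.12 percent) and Lama5 was 2-fold lower (2.2 percent), and the median over the 9 genes was 0.30 (0.02 over all genes). In RNA from whole cultures, fewer cells of a type and less RNA per cell cannot be told apart.

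**Figure D1:**
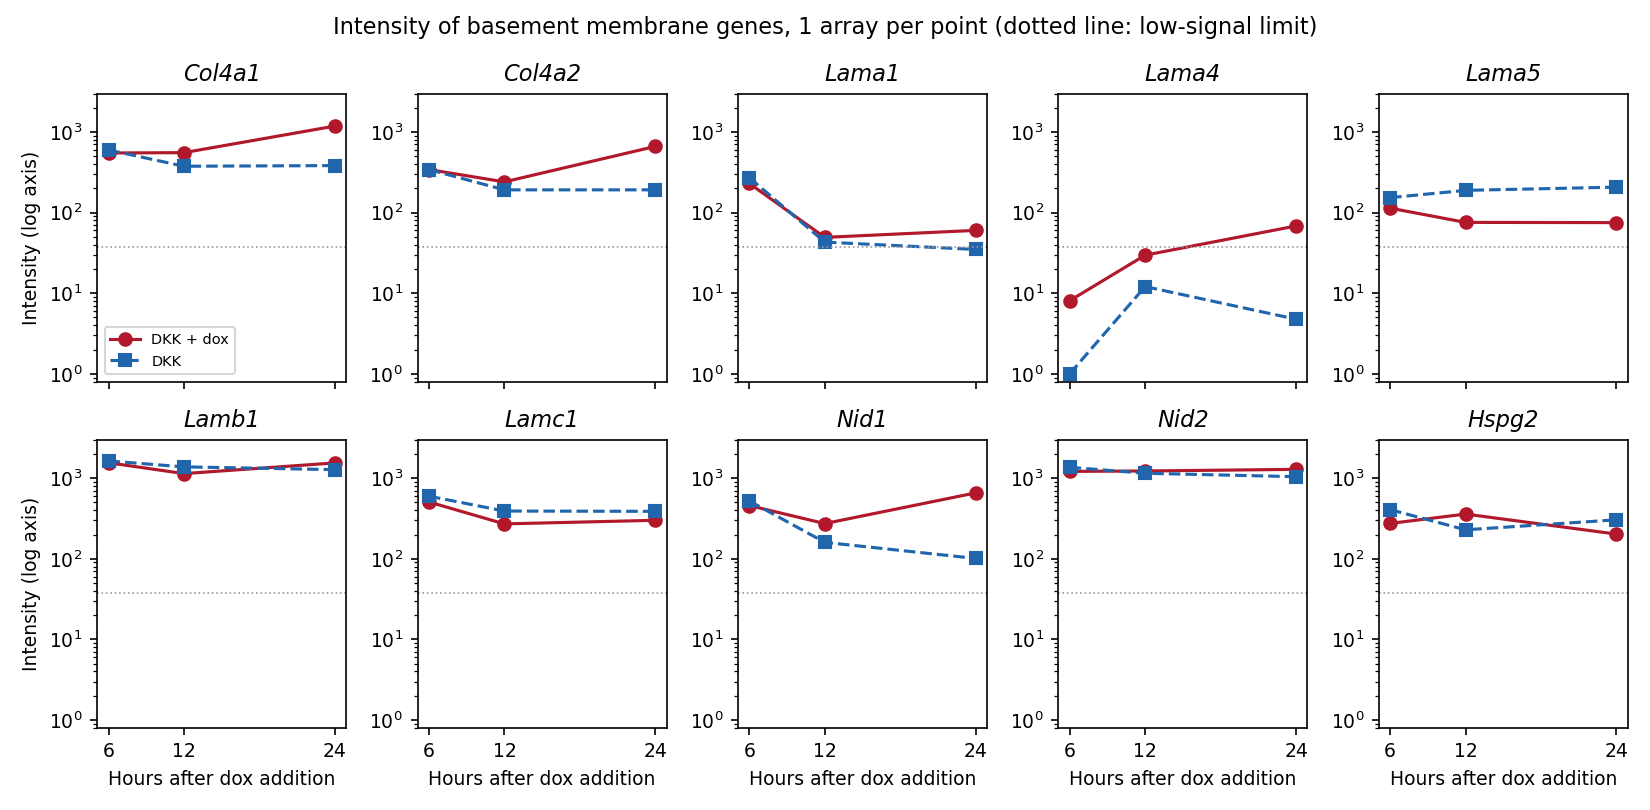
Intensity (log axis) of each gene against hours after dox addition, DKK + dox as solid red lines and DKK as dashed blue lines, 1 array per point; the dotted line is the low-signal limit of 37.2. Col4a1, Col4a2 and Nid1 start together at 6 hours and separate by 24 hours, and Lama5 is lower in DKK + dox at all 3 times. Lama4 is drawn from the probe set that exceeded the limit, on 1 array.

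Both chains of collagen IV rose, on 3 of 3 probe sets. Col4a1 encodes the alpha 1 chain, of which the common collagen IV trimer holds a pair. Its intensity at 6, 12 and 24 hours was 549, 554 and 1184 in DKK + dox and 598.5, 376 and 383 in DKK. The culture without dox was lower at 12 and 24 hours than at 6 hours, and the array with dox at 24 hours was the highest of the 6. The differences were -0.12, 0.54 and 1.58 log2 units, and the intensity at 24 hours was 3.09-fold higher with dox. The fitted difference was 1.38 (SE 0.20, adjusted p = 0.00637 from limma). A separate probe set for Col4a1, 1426348_at, read 184, 180.5 and 391 in DKK + dox and 202, 130.3 and 141 in DKK. It followed the same course at a lower signal, with differences of -0.12, 0.41 and 1.35, and passed in a fit of all 26362 probe sets over the limit (adjusted p = 0.0123 from limma).

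Col4a2, the alpha 2 chain that completes the trimer, had 342, 240.4 and 662 in DKK + dox and 342, 191 and 191 in DKK. The arrays at 6 hours were equal to within 1 intensity unit, and that with dox at 24 hours was again the highest of the 6. The difference was 0.30 at 12 hours and 1.69 at 24 hours, a ratio of 3.46, with a fitted difference of 1.40 (SE 0.24, adjusted p = 0.0102 from limma). The groups of 3 arrays overlap for each chain, and the calls rest on the 24 hour arrays. Without that pair the trend, extrapolated to 24 hours from 6 and 12 hours, was 0.76 for Col4a1 and 0.48 for Col4a2. Neither passed (adjusted p = 0.268 and 0.436 from limma).

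The chains ran in parallel over the 6 arrays. With each profile centred on its own mean, the root mean square distance between Col4a1 and Col4a2 was 0.15 log2 units, and Col4a2 was the fifth nearest of the 14754 other genes tested. Outside collagen IV the nearest profiles to Col4a1 were Hhex (0.11), a homeobox factor of endoderm and blood vessel precursors, Fkbp7 (0.11), a prolyl isomerase of the endoplasmic reticulum, Gsn (0.12), which severs actin filaments, Zfp503 (0.15) and Sh3pxd2b (0.16), a podosome scaffold. Hhex read 211, 215 and 450.0 in DKK + dox and 219, 166 and 163 in DKK, so that it too was level or lower in DKK and highest with dox at 24 hours. These likenesses are descriptions over 6 arrays of 1 experiment.

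Col4a1 (chr8:11198423-11312889) and Col4a2 (chr8:11312805-11449287, RefSeq positions in GRCm38.p6) lie head to head. The starts in the RefSeq promoter table are on opposite strands, Col4a1 on the minus and Col4a2 on the plus strand, and both fall within 22 bases, shown here on the plus strand (chr8:11312805-11312826) because the genes that start there moved together.
Col4a1 and Col4a2: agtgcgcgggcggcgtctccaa

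Of the 4 laminin chains tested, Lama5 fell and the others did not pass. Lama5, the alpha chain of laminin-511 that is widespread in epithelial basement membranes and a well known substrate for pluripotent cells, read 114, 75.6 and 75.1 in DKK + dox and 153, 189 and 207 in DKK. All 3 arrays with dox were below all 3 without, and the levels moved apart in time, down in DKK + dox and up in DKK. The differences were -0.37, -1.12 and -1.25 log2 units, and the intensity at 24 hours was 2.75-fold higher in DKK. The fitted difference was -1.45 (SE 0.23, adjusted p = 0.00780 from limma), beyond the measured one at 24 hours, most of the gap having been present at 12 hours. A further probe set, 1427010_s_at, had 82.5, 26.6 and 48.1 in DKK + dox against 106, 122 and 132 in DKK, with differences of -0.30, -1.59 and -1.15 (adjusted p = 0.0264 from limma in the fit of probe sets). The third Lama5 probe set, 1459614_at, stayed under the limit on all 6 arrays. Lama5 still passed without the 24 hour pair. Like Col4a1, Col4a2 and Nid1 it did not pass with the same difference assumed at the 3 times (adjusted p = 0.0832 from limma), with time fitted as a line (0.0534) or with no intensity trend in the variance (0.0574).

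The bases ahead of Lama5 (gene at chr2:180176373-180225904, minus strand) are shown as those of the tested gene with the lowest difference at 24 hours. RefSeq windows of the 250 bases before a listed start matched 6 of the 10 genes (Col4a1, Col4a2, Lama5, Lamb1, Nid1 and Hspg2). Those of Col4a1, Lama5, Lamb1 and Hspg2 reach into the annotated gene itself, and those of Col4a1 and Col4a2 each lie in the other gene. On both strands, CAGGTG occurred 2 times in the Lama5 window, beginning 246 and 186 bases before the start, and in none of the other 5. Among all 32851 windows of that length 17.2 percent held it and 2.06 percent held it 2 or more times. The broader form CANNTG, which includes CAGGTG, was found 2 times for Lama5 (the same sites), 2 times for Lamb1 and in 66.2 percent of all windows. The stretch printed (chr2:180225905-180226109, GRCm38.p6, minus strand, 5′ to 3′) ends 45 bases short of the start, where the annotated gene begins, and capitals mark CAGGTG on either strand. A match of letters is a description of the sequence, and binding of Snail there was not tested.
Lama5: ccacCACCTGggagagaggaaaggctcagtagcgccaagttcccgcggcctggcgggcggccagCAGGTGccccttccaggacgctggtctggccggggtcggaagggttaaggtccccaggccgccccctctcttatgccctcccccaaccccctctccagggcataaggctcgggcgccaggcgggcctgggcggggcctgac

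Lama1 (chr17:67697127-67822645) encodes the alpha chain of laminin-111, an early laminin of the embryo and a main product of parietal endoderm. It read 230, 49.3 and 60.2 in DKK + dox and 271, 43.1 and 34.9 in DKK, the last under the low-signal limit. Its main movement was in time and not with dox: the change between 6 and 12 hours was -1.84 log2 units in DKK + dox and -2.19 in DKK. The difference at 24 hours was 0.54, and the trend did not pass (fitted 0.42, SE 0.23, adjusted p = 0.275 from limma).

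Lama4 (chr10:38965515-39110188), the alpha chain of endothelial and mesenchymal laminin, was at background on the probe set with the higher mean. That set, 1424808_at, read 14.8, 20.5 and 27.7 in DKK + dox and 21.1, 20.3 and 23.9 in DKK, so the gene did not enter the test. The other, 1424807_at, read 8.07, 29.6 and 68.3 in DKK + dox and 1, 12.1 and 4.76 in DKK, where 1 is the lowest value the files hold. It exceeded the limit on the 24 hour array with dox alone. Its differences were 0.41, 0.62 and 1.81, and in the fit of all probe sets it rose (1.69, SE 0.30, adjusted p = 0.0111 from limma), having entered that fit only through the array on which it was high. The fitted difference was 0.87 on the mean of both probe sets (adjusted p = 0.0867 from limma) and 0.05 on 1424808_at with no filter (adjusted p = 0.946 from limma), so the Lama4 probe sets disagree. Lama4 is also among the mesodermal genes that the study displayed from these same arrays, and its direction is not independent evidence. The profiles nearest to 1424807_at were Man1a, Nog, Tshz1, Shisa3 and She, at distances of 0.11 to 0.13. Nog, an inhibitor of BMP, read 8.52, 27.6 and 52.1 in DKK + dox and 1, 7.08 and 2.64 in DKK, which is likewise over the limit on a single array.

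The beta and gamma chains that most laminin trimers share showed no call. Lamb1 (chr12:31265146-31329644) had 1552, 1138 and 1545 in DKK + dox and 1635, 1380.4 and 1276 in DKK, and the groups overlapped throughout. Its differences of -0.07, -0.27 and 0.27 changed sign between 12 and 24 hours (fitted 0.09, SE 0.15, adjusted p = 0.751 from limma). Of its other probe sets, 1424113_at had differences of -0.00, -0.32 and 0.05, 1451241_at had -0.23, -0.87 and -0.32, neither passed, and 1446180_at was under the limit on all arrays.

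Lamc1 (chr1:153218922-153332786) had 506.5, 271 and 300.2 in DKK + dox and 598, 391 and 388 in DKK. It was lower in DKK + dox than in DKK throughout, at -0.23, -0.50 and -0.35, and missed the threshold (fitted -0.50, SE 0.16, adjusted p = 0.0806 from limma). It passed when the arrays were quantile normalized (adjusted p = 0.0489 from limma) or centred on their medians (0.0369). Its probe set 1423886_at differed, with 177, 124 and 112 in DKK + dox and 117, 115 and 133 in DKK, and differences of 0.52, 0.09 and -0.21.

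**Figure D2:**
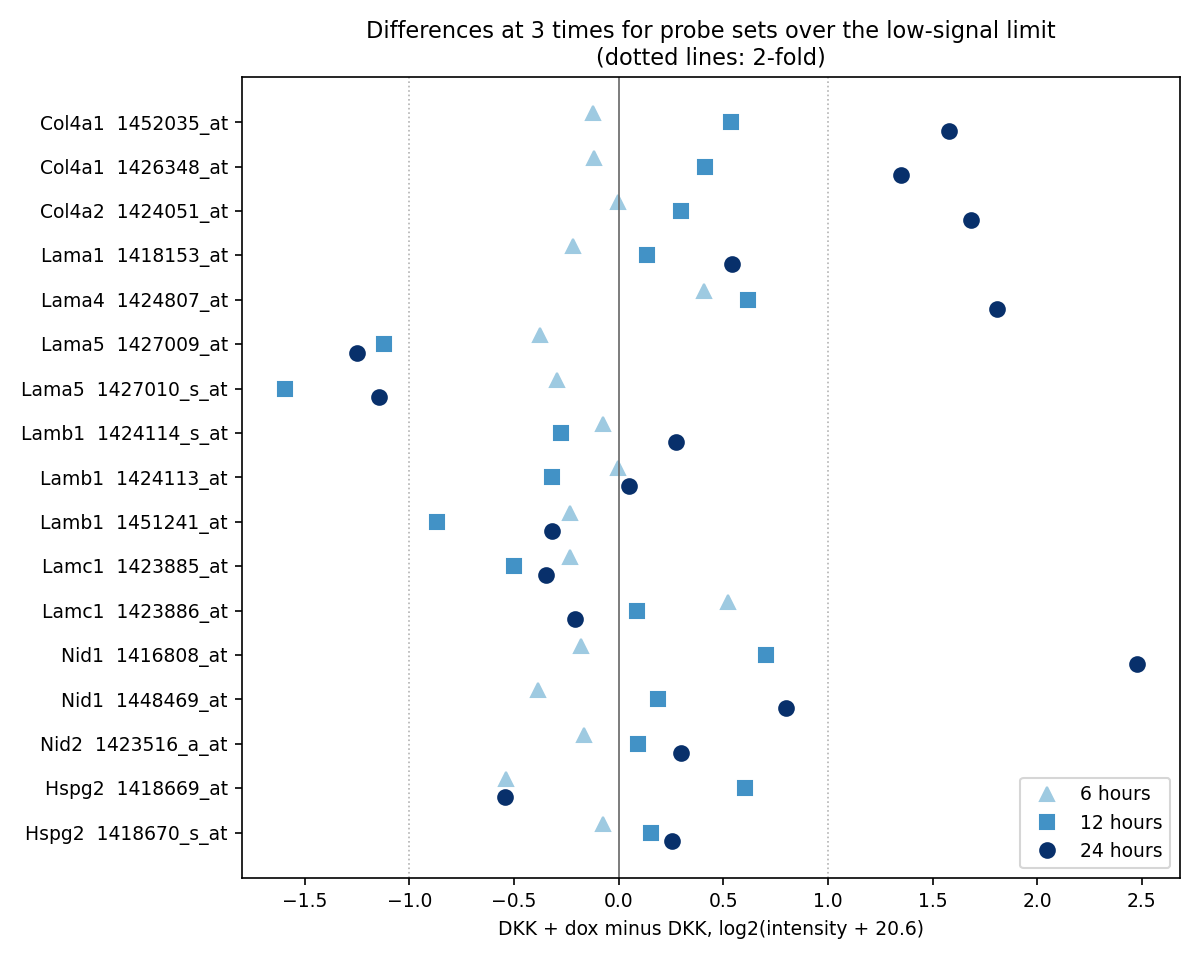
DKK + dox minus DKK in log2 units at 6, 12 and 24 hours (triangles, squares and circles) for the 17 probe sets over the low-signal limit on at least 1 array; dotted lines mark 2-fold. The circles of both Col4a1 probe sets, Col4a2, Lama4 and the main Nid1 probe set lie beyond 1, and both Lama5 probe sets lie beyond -1 at 12 and 24 hours.

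Of the nidogens, which bridge laminin and collagen IV, Nid1 rose and Nid2 did not pass. The difference between them was not tested. Nid1 (chr13:13437602-13512275) had the largest difference of the 9 tested genes. It read 458, 273 and 656 in DKK + dox and 522, 159.9 and 101 in DKK. Without dox it dropped at each step, and with dox it was lower at 12 hours and highest of the 6 arrays at 24 hours. The differences were -0.18, 0.70 and 2.48, a 6.50-fold ratio at 24 hours, and the fitted difference was 2.12 (SE 0.31, adjusted p = 0.00631 from limma). The probe set 1448469_at, near the limit, read 39.8, 33.0 and 42.6 in DKK + dox and 58.2, 26.4 and 15.7 in DKK, with a difference of 0.80 at 24 hours, and did not pass (adjusted p = 0.253 from limma). 1441519_at was under the limit throughout. With the mean of all its probe sets in place of the highest, Nid1 itself no longer passed (fitted 1.02, adjusted p = 0.0706 from limma). Nor did it without the 24 hour pair (0.98, extrapolated from 6 and 12 hours, adjusted p = 0.269 from limma).

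The 250 bases before Nid1 (chr13:13437352-13437601, GRCm38.p6, plus strand, 5′ to 3′) are shown as those of the gene that moved most. Capitals mark CCAAT, present as ATTGG 91 bases before the start, and the GC box GGGCGG at 67 bases. Searched on both strands, CCAAT was in 33.8 percent and GGGCGG in 32.7 percent of all windows. CCAAT was found 1 time each for Col4a1, Col4a2, Lamb1 and Nid1 and not for Lama5 or Hspg2, and GGGCGG was found for every matched gene except Col4a1.
Nid1: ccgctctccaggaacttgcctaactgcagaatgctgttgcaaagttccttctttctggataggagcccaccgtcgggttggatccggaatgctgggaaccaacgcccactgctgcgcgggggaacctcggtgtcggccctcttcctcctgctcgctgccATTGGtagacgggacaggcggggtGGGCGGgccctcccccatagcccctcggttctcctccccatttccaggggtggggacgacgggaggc

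Nid2 (chr14:19751257-19811787), which overlaps with Nid1 in binding, was nearly level. It had 1213, 1227 and 1285.5 in DKK + dox and 1363, 1149.7 and 1043 in DKK. The differences were -0.17, 0.09 and 0.30, and the trend did not pass (fitted 0.23, SE 0.11, adjusted p = 0.237 from limma).

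Hspg2 (chr4:137468751-137570630) encodes perlecan, the heparan sulfate proteoglycan that binds laminin, nidogens and growth factors. It had 274, 359 and 202 in DKK + dox and 407, 229 and 304 in DKK. The difference turned sign at each time, at -0.54, 0.61 and -0.54, and did not pass (fitted -0.29, SE 0.32, adjusted p = 0.626 from limma). The probe set 1418670_s_at did not share this course, with differences of -0.08, 0.15 and 0.26.

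**Figure D3:**
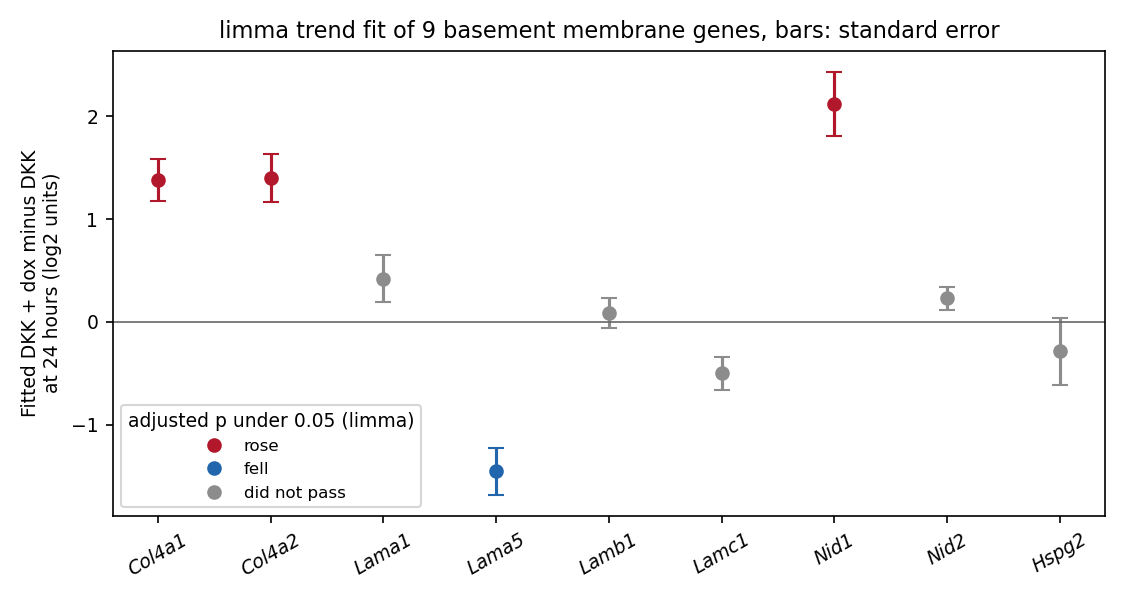
Fitted DKK + dox minus DKK difference at 24 hours in log2 units for the 9 tested genes, bars showing the standard error of the limma trend fit. Nid1 (2.12), Col4a2 (1.40) and Col4a1 (1.38) rose, Lama5 (-1.45) fell, and the 5 grey genes lie between -0.50 and 0.42.

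In the cultures without dox most of these genes declined on the probe set used for each. Between the DKK arrays at 12 and 6 hours the median change over the 9 genes was -0.64 log2 units (-0.08 over all genes). At 12 hours 8 of the 9 were lower, as were 8552 of the 14755 genes tested. Lama1 and Nid1 were 2-fold lower (4.57 percent of all genes were) and none was 2-fold higher (1.86 percent). From 12 to 24 hours less followed in DKK, with Nid1 at -0.57, Hspg2 at 0.38, a median of -0.01 and no gene 2-fold higher or lower (0.427 and 0.352 percent of all genes). Over the whole span from 6 to 24 hours the median was -0.60 (-0.08 over all genes), with Lama1 (-2.39) and Nid1 (-2.16) 2-fold lower (4.26 percent) and none 2-fold higher (2.51 percent). Lama5 was the exception, at 0.39. Other probe sets over the limit did not all decline over that span. Lamb1 had 0.25 on 1424113_at and 0.01 on 1451241_at, Lamc1 0.16 on 1423886_at and Hspg2 0.12 on 1418670_s_at. Col4a1 had -0.46 on 1426348_at and Nid1 -1.12 on 1448469_at. With the mean of all probe sets of each gene the median was -0.30. These changes are differences of 2 arrays with no test.

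In DKK + dox, 6 of the 9 genes were lower at 12 than at 6 hours, as were 7914 of the 14755 genes tested. The median change was -0.47 over the 9 genes and -0.04 over all genes. Among the 6 lower genes Col4a2 changed by -0.47, Nid1 by -0.70, Lamc1 by -0.85 and Lama1 by -1.84. Col4a1 (0.01), Nid2 (0.02) and Hspg2 (0.36) were not lower. From 12 to 24 hours Col4a2 changed by 1.39, Nid1 by 1.20 and Col4a1 by 1.07, while Lama1 (0.21) and Lamc1 (0.14) moved little. At 24 hours Col4a1 was thus 1.08 and Col4a2 0.91 above their own 6 hour arrays, and Nid1 was 0.50 above, so for Nid1 the larger part of the 2.48 between the cultures was the decline without dox. Each DKK array also serves as the control at its time, so these values and the differences with dox are not independent.

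**Figure D4:**
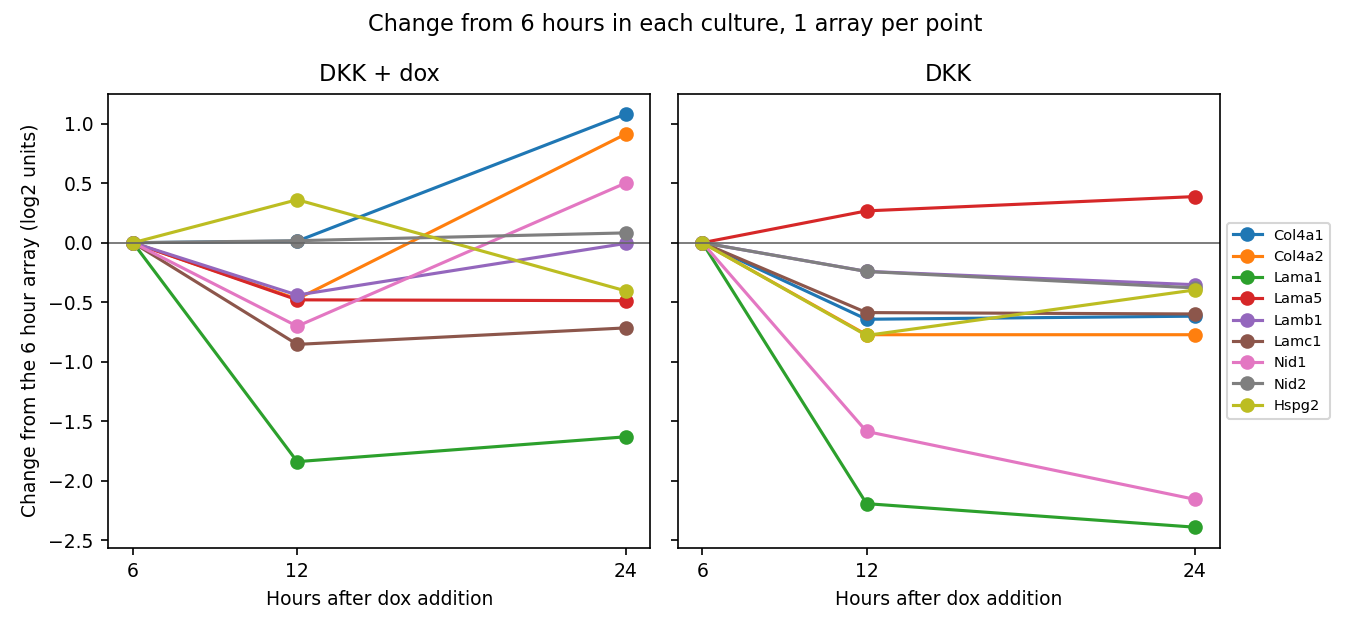
Change from the 6 hour array of the same culture in log2 units against hours after dox addition, DKK + dox in the left panel and DKK in the right panel, 1 line per tested gene. In DKK all lines but Lama5 lie below zero at 12 and 24 hours; in DKK + dox Col4a1, Col4a2 and Nid1 turn up between 12 and 24 hours, and Lama1 stays near -1.63.

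Of 21 enzymes and chaperones that make, carry or cross-link collagen IV, 19 were tested, 8 rose and 1 fell (8.32 and 6.38 percent of all genes tested), with medians of 0.07, 0.31 and 0.34 at the 3 times (-0.04, 0.03 and 0.02 over all genes). The largest difference at 24 hours was that of Serpinh1 (HSP47, the collagen chaperone), with 431, 743 and 1814 in DKK + dox and 390.3, 382 and 376 in DKK (2.21, adjusted p = 0.00142 from limma). It was level in DKK and climbed at each step with dox. Gpx7, a peroxidase of the endoplasmic reticulum, had 1.31 and Plod1, a lysyl hydroxylase, 1.14, and both rose. The others that rose were the prolyl hydroxylase subunits P4ha1 and P4ha2, Plod2, Crtap and Pxdn (peroxidasin, which forms the sulfilimine cross-links of collagen IV), whose difference went through -0.01, 0.41 and 0.98. Sec24d, a coat protein of vesicles that carry collagen, fell (-0.67), and P3h2 (-0.20) and Colgalt2 (-0.12) did not pass. Most of these enzymes serve other collagens too.

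Among 26 other basement membrane genes, 16 were tested, 3 rose and 1 fell, against 8.32 and 6.38 percent of all genes, and the medians were -0.08, 0.18 and -0.21 (-0.04, 0.03 and 0.02 over all genes). The fallen share is near that of all genes. Fbln2 (1.07) and Fbln1 (0.95), fibulins that bind laminin and nidogen, and Sparc (0.75), a collagen binding glycoprotein, rose. Fbln2 passed narrowly (adjusted p = 0.0476 from limma), with 124, 35.7 and 58.9 in DKK + dox and 110, 28.6 and 17.3 in DKK. It was under the limit at 12 hours in both cultures and at 24 hours in DKK, and was lower at 24 than at 6 hours in both. Col18a1 fell (-0.73), with 2250.0, 1446 and 1190.2 in DKK + dox and 2432, 2156 and 1985 in DKK. The 3 lowest values were those of Col15a1 (-1.06), Frem2 (-0.85) and Lama2 (-0.75), all with intensities under 50 and none past the test. Lama3, Lamb2, Lamb3, Lamc3 and Col4a6 were among 9 genes under the limit on every array.

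Of 17 receptors of laminin and collagen IV, 13 were tested, 1 rose and 3 fell, with medians of -0.14, 0.00 and -0.09 (-0.04, 0.03 and 0.02 over all genes). Over all genes 8.32 percent rose, near the share of the receptors, and 6.38 percent fell. Itga1, the alpha 1 subunit of a collagen IV receptor, had 28.6, 84.0 and 165 in DKK + dox and 14.9, 22.2 and 17.5 in DKK, with a difference of 2.29 at 24 hours (adjusted p = 0.00231 from limma). All 3 DKK arrays were under the limit, so Itga1 entered the test only through the arrays on which it was high. Itga6, the alpha 6 subunit of laminin receptors, had 1808, 986 and 1071 in DKK + dox and 2486, 2344 and 2276 in DKK, and fell (-1.07, adjusted p = 0.00790 from limma). Bcam (-0.86), a receptor specific for laminin alpha 5, and Ddr1 (-0.85), a collagen receptor kinase, also fell. Ddr1 read 572, 839 and 1034 in DKK + dox and 672, 1584 and 1878 in DKK. It thus increased in time in both cultures, and less with dox. Itgb1 (0.40), the shared beta subunit, and Sdc1 (0.27) did not pass.

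**Figure D5:**
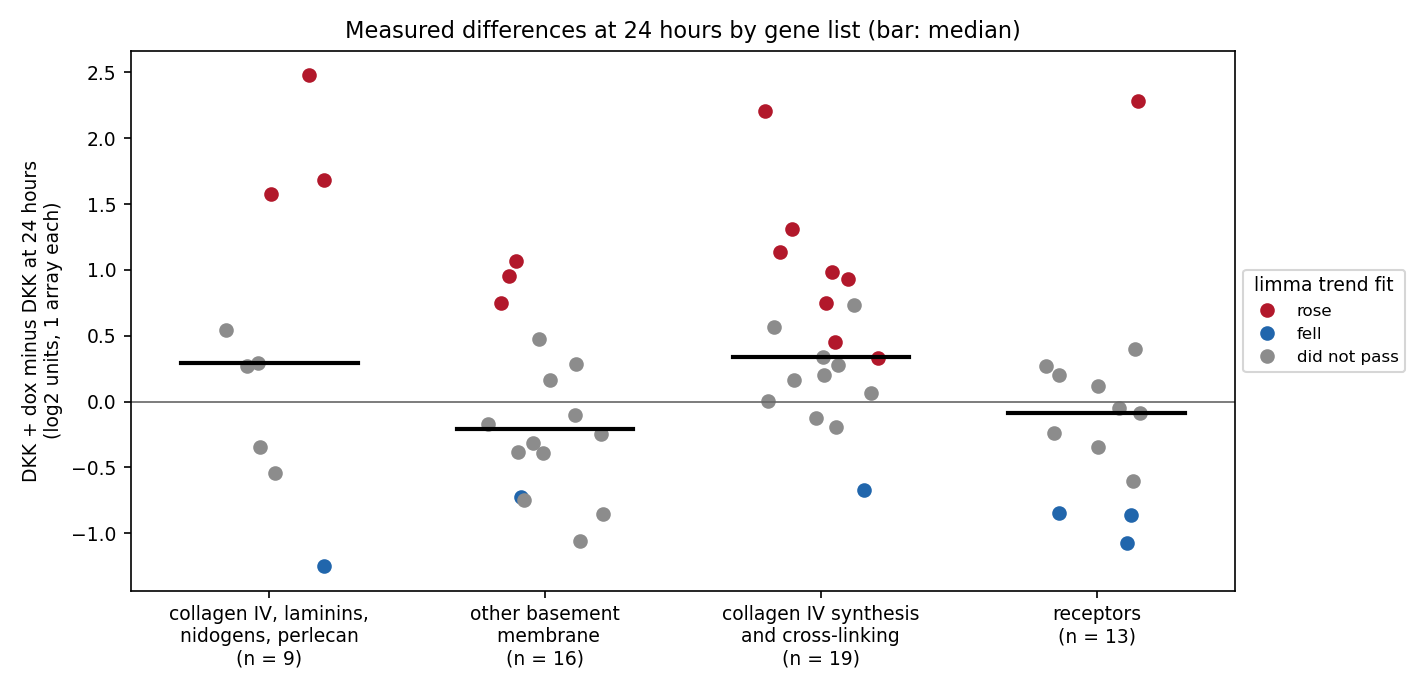
DKK + dox minus DKK at 24 hours in log2 units for each tested gene of 4 lists, coloured by its call in the limma trend fit, with black bars at the medians (0.30, -0.21, 0.34 and -0.09 from left to right). Horizontal scatter within a list has no meaning.

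Among markers of cell types that the cultures could hold, some genes of parietal endoderm and endothelium rose. None of those tested for visceral endoderm and fibroblasts did. The counts stand against 8.32 percent of all genes that rose and 6.38 percent that fell. Of 11 parietal endoderm genes, all tested, 5 rose (Sox7, Sox17, Pth1r, Dab2 and Sparc, the last also counted above) and none fell. Gata4, Gata6, Thbd, Plat, Srgn and Cubn did not pass. The summed intensity of that list was 4549, 3284 and 4136 in DKK + dox and 4710, 2495 and 1940 in DKK, so it too was lower at 12 hours in both cultures and higher with dox at 24 hours. Srgn had a large part in the 12 hour drop, with 1536, 230 and 294 in DKK + dox and 1644, 218 and 195 in DKK. Of 9 endothelial genes, Cdh5, Tek, Kdr and Flt1 rose among the 6 tested, with sums of 340, 607 and 1414 in DKK + dox and 333, 296 and 288 in DKK. Cdh5 and Flt1 exceeded the limit only in DKK + dox and entered the test through those arrays. The defining markers Pecam1, Tie1 and Emcn lay under the limit on all arrays. Kdr had 60.5, 371 and 771 in DKK + dox and 77.5, 99.3 and 89.4 in DKK, and like Lama4 it is among the genes the study displayed from these arrays. Of 7 tested visceral endoderm genes none rose and Apoe and Foxa1 fell, with sums of 1717 to 3372 in DKK + dox and 2418 to 3604 in DKK, and Afp and Apob were under the limit. Of 5 tested genes of fibroblasts, the cell type of the feeders, none passed (sums of 456 to 555 in DKK + dox and 387 to 632 in DKK), and Lum, Postn and Fap were under the limit. The highest of that list was Twist2, at 114 to 131 in DKK + dox and 81.8 to 123 in DKK. Pluripotency and epiblast genes, led by Dnmt3b, had high sums on every array, 31273 to 33545 in DKK + dox and 34405 to 38626 in DKK, and 4 of 8 fell. These were Fgf5 (-1.71 at 24 hours) and, by less, Utf1 (-0.39), Dnmt3b (-0.24) and Sox2 (-0.23). Pou5f1, Nanog, Lin28a and Otx2 did not pass. The part of any of these cell types in the changes of collagen IV, Nid1 and Lama5 was not tested.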

How the data were processed

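RNA of 6 A2.Snail cultures was hybridised to Affymetrix mouse arrays (MOE430_2.0). dChip, in a version not given in the sources used here, was used by the authors for normalization and modeling, and its output was deposited as linear intensity, down to 1. Of 45037 probe sets, 34945 carried 1 symbol, 932 several and 9160 none, and 34741 matched the RefSeq gene table (GRCm38.p6). Only those with 1 symbol were used. The low-signal limit was not exceeded by 37.5 to 41.3 percent of probe sets per array, and the number of arrays limits the precision.

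limma 3.58.1 in R 4.3.3 fitted log2(intensity + 20.6) of 14755 genes with 4 coefficients. These were 3 time blocks and the dox effect at 24 hours, taken as proportional to elapsed hours. The functions were lmFit and eBayes with intensity trend (5.5 prior degrees of freedom, Benjamini-Hochberg threshold 0.05). The fit was run on simulated data with effects proportional to hours, the form it assumes, so that run cannot check the form. The median residual SD was 0.15 log2 units. Named genes are all 10 members and each of their probe sets, the 3 highest and 3 lowest tested genes at 24 hours of each pathway list, the highest marker of each cell type list, and the 5 nearest profiles of Col4a1 and Lama4; others were named after their values were seen. Members and lists were chosen with earlier results of these data known. Alternatives covered offset, filter, normalization, probe set, model and left-out time. Promoter sequences and positions are from RefSeq (GRCm38.p6). Python 3.11.15 and matplotlib 3.10.9 drew the figures.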

Additional observations from a re-analysis of the deposited data

Results flagged for a closer look

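Hspg2 on its main probe set had differences of opposite direction at the 3 times, -0.54 at 6 hours, 0.61 at 12 hours and -0.54 at 24 hours. The 12 hour value differed in sign from the others with all 6 intensities over the low-signal limit. The difference between the times was not tested, since each is a pair of single arrays.

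Lama4 on the probe set that the gene-level fit did not use had an intensity of 68.3 in DKK + dox and 4.76 in DKK at 24 hours. It was picked out because only an array with dox exceeded the low-signal limit.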

How the results depend on the processing

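Direction held for the 4 genes with a call (Col4a1, Col4a2, Lama5 and Nid1) under each of the 16 alternatives, with fitted differences of 0.66 to 1.48, 0.48 to 1.59, -2.09 to -0.91 and 0.98 to 2.29, and the calls depended on the form of the model. Where main counts were 3 risen and 1 fallen, both counts were 0 with the same difference assumed at the 3 times (0 of all genes passed, lowest adjusted p = 0.0516 from limma; 2927 genes and 2 members had an unadjusted p under 0.05), 0 with time as a line (121 genes rose and 80 fell; 4 members under 0.05 unadjusted) and 0 without the intensity trend (209 and 76; 5 members). Without the 24 hour pair 0 rose and Lama5 still fell (229 and 499 of all genes). Fitted differences of that setting extrapolate the trend from 6 and 12 hours to 24 hours, and the ranges given here include them. Without the 6 hour pair 793 genes rose and 533 fell, and the members' counts were unchanged. The count of fallen members was 2, with Lamc1, when arrays were quantile normalized or centred on their medians; with centring the median of all genes at 24 hours was -0.05 in place of 0.02. With the mean of all probe sets 2 members rose (828 and 741 of all genes), and the median change in DKK from 6 to 24 hours was -0.30 in place of -0.60. With the probe set of highest value, an alternative added after seeing the data, 4 rose, Lama4 being the addition. At 1.5-fold in place of 2-fold, 2 members were higher at 12 hours in place of 0. No member reversed a call. Hspg2 and Lamb1, which had no call, changed sign under some settings (-0.64 to 0.54 and -0.50 to 0.24). The time block pairs the cultures of each time in all but the linear fit. Signal limits Lama4, Lama1 at 24 hours and the second Nid1 probe set, which lie near or under the low-signal limit.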
